A study of Mus musculus with 24 samples.

Results

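Vimentin (Vim), nestin (Nes), lamin A/C (Lmna), lamin B1 (Lmnb1) and lamin B2 (Lmnb2) belong to the intermediate filament family, and their genes were taken by symbol as 5 of the 19880 genes measured in mouse dermal fibroblasts. The study asked in which cell-states primary fibroblasts gather ubiquitinated proteins into an aggresome once the proteasome is blocked, and it gives vimentin as the material of the cage around this structure. Fibroblasts from the tails of male C57/Bl6 mice aged 4 weeks were brought into several cell-states from 1 starting pool, and poly(A) RNA was sequenced in 24 libraries, 3 for each of 8 groups. Values are TPM, a transcript abundance that is divided by gene length and sums to the same total in each library, so that levels can be compared between genes. How many reads stand behind a value is unknown.

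The groups were made as follows. Immortalized fibroblasts carried the SV40 T antigen, brought in by a retrovirus, and were given MG132, an inhibitor of the proteasome, at 10 µM or its solvent DMSO at 0.1%, in both cases for 8 h. Senescent fibroblasts had been passaged until the culture no longer expanded, and received the same doses of MG132 or DMSO for the same time. Quiescent fibroblasts had been held at confluence, and proliferating fibroblasts had been seeded sparsely, again with MG132 or DMSO at these doses. The study used a low level of lamin B1 protein, seen by immunostaining, as 1 of its criteria of senescence. The level of Lmnb1 RNA in senescent fibroblasts is therefore not independent of how that group was characterized. T antigen itself was not analysed here. The study states that tail fibroblasts came from several mice and that experiments were in general repeated on separate days, but no source ties a library to a mouse or a day, so p-values reflect how far these libraries spread, and part of that spread may be technical.

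Vimentin forms the main cytoplasmic filament network of fibroblasts and other mesenchymal cells, and nestin is a large filament protein that assembles only together with partners such as vimentin. Lamins form the meshwork under the inner nuclear membrane: Lmna gives lamins A and C by splicing and is strongest in stiff and differentiated tissues, while Lmnb1 and Lmnb2 give the farnesylated B-type lamins that stay attached to the membrane. Loss of lamin B1 is a widely used sign of senescence in fibroblasts.

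Markers of fibroblasts were present in every library, with a summed level of 2121 to 19351 TPM over 8 genes, and markers of other cell types were measured beside them. Of the 4 keratinocyte genes measured, 3 reached 1 TPM in some library, with sums of 2.29 to 9.71 TPM, of the 4 endothelial genes 3 did (0.276 to 7.50 TPM), of the 4 Schwann cell and glia genes 3 (1.66 to 14.6 TPM), of the 3 melanocyte genes 1 (1.38 to 6.70 TPM) and of the 3 leukocyte genes 1 (3.57 to 66.6 TPM). Cdh1 of keratinocytes, Cdh5 of endothelium, Ptprc of leukocytes and Sox10 of Schwann cells stayed under 1 TPM in every library. The leukocyte sum was higher under MG132, most in senescent fibroblasts (56.5 to 66.6 TPM with MG132 and 8.94 to 15.8 TPM with DMSO). Of the 3 skeletal muscle genes measured, 2 reached 1 TPM, with sums of 32.3 to 541 TPM and with Ckm under 1 TPM throughout, and all 5 markers of pericytes and smooth muscle were present, with sums of 918 to 14138 TPM that were lowest in the senescent groups (918 to 2484 TPM). The part of these other markers in the results was not tested. All 10 of the HSF1 targets checked, which include Hspa1a and other chaperone genes, were called higher under MG132 in each of the 4 cell-states. A pair of libraries stood apart from the rest of their groups in lists that touch the results. Proliferating DMSO replicate 3 had a mean of 9.02 on the log2 scale over these HSF1 targets, against 6.93 and 6.99 in replicates 1 and 2, and a mean of 3.58 over 22 cell cycle genes, against 4.44 and 4.62. Immortalized DMSO replicate 2 had a mean of 6.56 over the cell cycle genes, against 5.03 and 4.72 in replicates 1 and 3. By the same cell cycle list, quiescent DMSO fibroblasts had a mean of 4.27 ± 0.48 and proliferating DMSO fibroblasts one of 4.21 ± 0.56 (SD, n = 3 each), or 4.53 without replicate 3, and limma called 0 of the 22 genes between them (1 at an unadjusted p under 0.05). Without that library 1 of the 22 was called, lower in quiescent fibroblasts. The part of these libraries in a result was not tested beyond leaving them out.

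On GRCm38, with the gene models of GENCODE M21, Vim lies on chromosome 2 at 13573927-13582826 on the plus strand with 9 exons, and Nes on chromosome 3 at 87971078-87980451 on the plus strand with 4 exons. Lmna lies on chromosome 3 at 88480147-88509956 on the minus strand with 12 exons, and Lmnb2 on chromosome 10 at 80901203-80918245 on the minus strand with 12 exons. Values are sums over a gene, so lamin A and lamin C transcripts were not told apart. The promoter sequences of 4 of the genes are shown because these genes moved in different directions under a treatment that induces every HSF1 target checked, and a reader may want to see which short motifs they hold. Each runs from 250 bases before to 50 bases after a start site of RefSeq (GRCm38.p6), 5′ to 3′ on the strand of the gene, and capitals mark matches to the motifs searched on both strands. For Lmna, upstream and downstream only order the windows shown. Both lie inside the gene, whose 5′ end on the minus strand is at 88509956, so the promoter at that end is not among them.
Vim promoter, chr2:13574061-13574360, plus strand: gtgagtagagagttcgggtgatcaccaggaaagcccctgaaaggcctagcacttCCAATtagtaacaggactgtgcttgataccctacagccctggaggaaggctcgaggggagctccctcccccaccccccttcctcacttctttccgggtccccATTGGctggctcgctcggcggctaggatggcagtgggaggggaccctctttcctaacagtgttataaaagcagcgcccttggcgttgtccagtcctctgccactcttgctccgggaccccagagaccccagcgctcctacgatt
Nes promoter, chr3:87970843-87971142, plus strand: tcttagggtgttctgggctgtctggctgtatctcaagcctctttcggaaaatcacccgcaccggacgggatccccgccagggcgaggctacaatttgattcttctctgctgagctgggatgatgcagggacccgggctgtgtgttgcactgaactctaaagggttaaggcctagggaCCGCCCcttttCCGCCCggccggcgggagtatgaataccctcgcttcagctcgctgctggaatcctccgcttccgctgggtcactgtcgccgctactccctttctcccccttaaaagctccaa
Lmna promoter of the upstream start, chr3:88503303-88503602, minus strand: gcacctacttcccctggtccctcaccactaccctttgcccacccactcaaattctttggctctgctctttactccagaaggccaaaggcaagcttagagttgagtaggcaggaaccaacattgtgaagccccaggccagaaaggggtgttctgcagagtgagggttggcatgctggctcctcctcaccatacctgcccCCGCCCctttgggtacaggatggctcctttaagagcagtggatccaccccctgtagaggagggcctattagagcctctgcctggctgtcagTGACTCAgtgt
Lmna promoter of the downstream start, chr3:88493263-88493562, minus strand: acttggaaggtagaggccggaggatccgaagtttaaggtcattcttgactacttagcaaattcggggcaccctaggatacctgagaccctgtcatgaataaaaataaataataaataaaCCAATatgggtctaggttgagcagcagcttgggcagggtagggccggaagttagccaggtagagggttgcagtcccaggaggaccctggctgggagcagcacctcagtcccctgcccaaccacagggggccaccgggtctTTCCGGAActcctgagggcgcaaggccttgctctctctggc
Lmnb2 promoter of the upstream start, chr10:80918196-80918495, minus strand: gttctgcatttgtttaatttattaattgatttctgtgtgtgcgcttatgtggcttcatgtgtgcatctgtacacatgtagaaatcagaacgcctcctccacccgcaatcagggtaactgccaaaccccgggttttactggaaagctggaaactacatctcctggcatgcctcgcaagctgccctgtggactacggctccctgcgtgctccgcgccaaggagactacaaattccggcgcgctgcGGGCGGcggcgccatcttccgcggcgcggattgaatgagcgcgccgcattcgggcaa
The Vim window held CCAAT at -196 and ATTGG, the same motif on the other strand, at -94 from the start site. CCAAT was in 37.4% of the 32851 promoters of the table and in 37.7% of the 13366 that belong to genes tested here. The Sp1 motif was searched as CCGCCC on both strands, and 35.7% of all promoters and 61.3% of those of tested genes hold it. It was at -73 and -62 in the Nes window and at -52 in the upstream Lmna window, and the Lmnb2 window held it on the other strand at -7. The upstream Lmna window also held the AP-1 motif TGANTCA at 40, found in 7.81% of all promoters and 5.49% of those of tested genes. The heat shock element (GAANNTTC or TTCNNGAA) was found once, as TTCCGGAA at 10 in the downstream Lmna window, and 15.1% of all promoters and 11.7% of those of tested genes hold it. The E2F motif (TTTCCCGC or TTTGGCGC), held by 1.56% of all promoters and 2.78% of those of tested genes, was in none of these windows. The window of the downstream Lmnb2 start, at 80906363-80906662, held none of the motifs. These matches are letters in a window and were not tested as binding sites.

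The 5 genes differed widely in level. Vim was among the 14 most abundant genes of every library and held 0.75% to 2.60% of all TPM. It was the most abundant gene of all in each senescent library, with or without MG132, and in each immortalized DMSO library. Nes (52.1 to 449.7 TPM) and Lmna (109 to 501 TPM) lay in a middle range, while the B-type lamins were low, with 2.56 to 64.9 TPM for Lmnb1 and 2.66 to 36.2 TPM for Lmnb2.

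**Figure D1:**
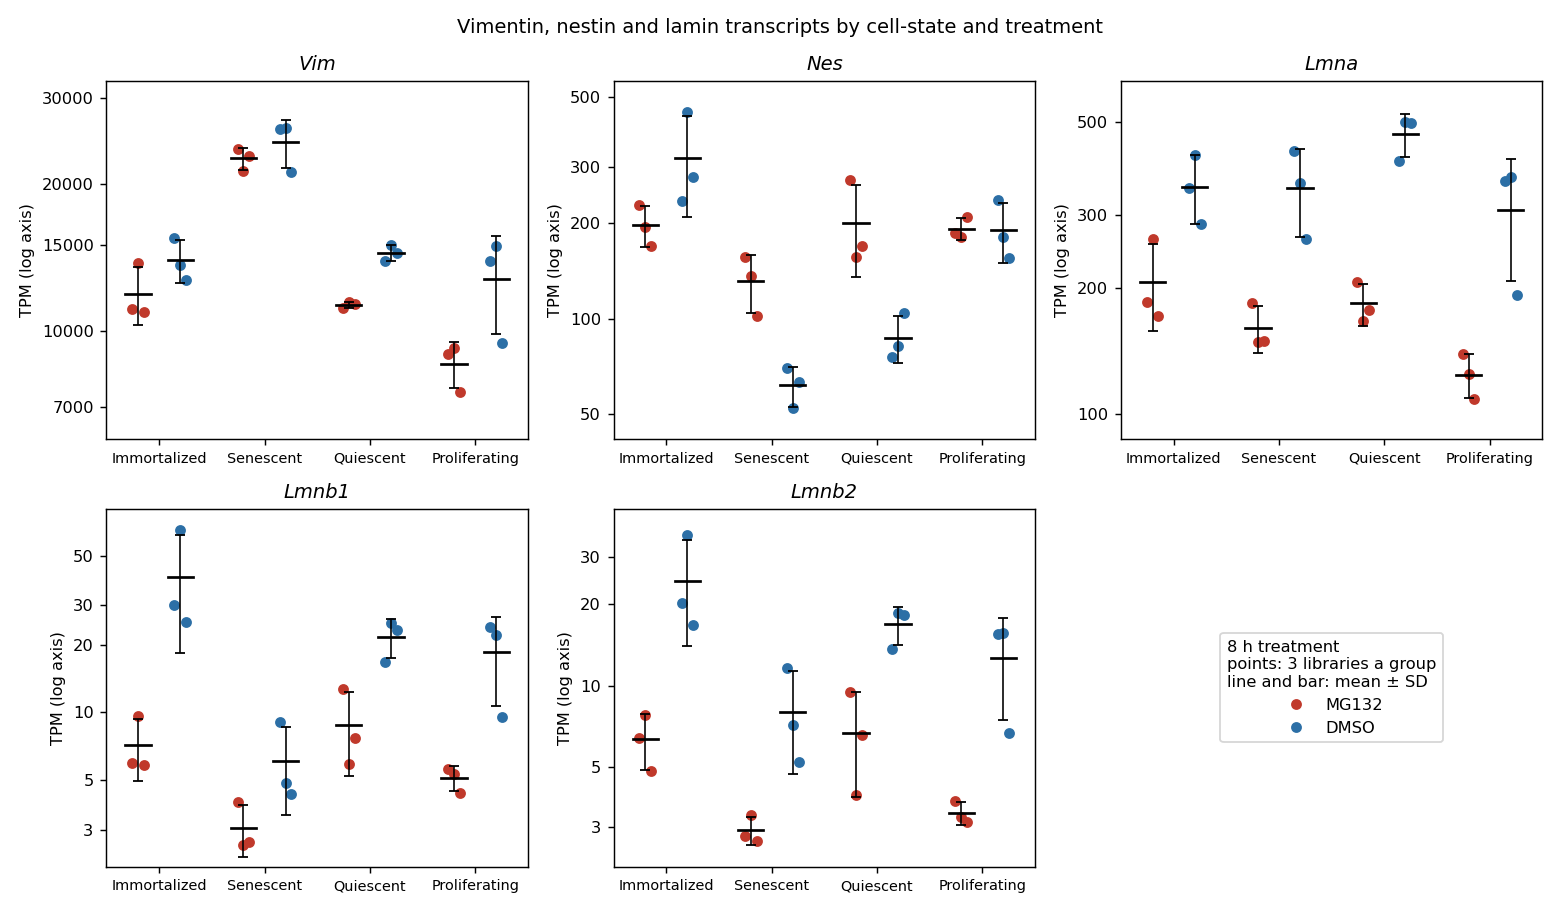
Deposited TPM on a log axis for Vim, Nes, Lmna, Lmnb1 and Lmnb2, 1 panel each, in immortalized, senescent, quiescent and proliferating fibroblasts, with MG132 (red) left of DMSO (blue). Points are libraries, and lines and bars are the mean ± SD of 3; Lmna, Lmnb1 and Lmnb2 lie lower under MG132 in all 4 cell-states on this scale, and the senescent libraries hold the highest Vim values (21174 to 25968 TPM).

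Comparing libraries needs a choice of scale, because MG132 moved the median gene as deposited by -0.57 on the log2 scale in immortalized, -0.047 in senescent, -0.18 in quiescent and -0.48 in proliferating fibroblasts. Differences below were therefore taken after dividing each library by a median-of-ratios size factor, as log2(scaled TPM + 1) with limma, with p-values adjusted over all 13489 genes tested by the Benjamini-Hochberg method, and a gene was called at an adjusted p under 0.05. The difference in TPM as deposited is named for many of the results whose direction or call it changed, but not for all.

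Under MG132 and after scaling, Lmnb2 fell in all 4 cell-states, Lmnb1 and Lmna fell in 3 each, Nes rose in 3 and Vim rose in 1. In immortalized fibroblasts Vim was called higher and Lmnb1 and Lmnb2 lower, while 53.3% of all genes tested were called, 26.6% higher and 26.6% lower. In senescent fibroblasts Nes was called higher and Lmna and Lmnb2 lower, against 46.1% of all genes (22.7% higher and 23.4% lower). In quiescent fibroblasts (52.2% of all genes called, 25.3% higher and 26.9% lower) and in proliferating fibroblasts (49.9%, 25.2% higher and 24.8% lower) Nes was called higher and Lmna, Lmnb1 and Lmnb2 lower. A call alone therefore sets none of these genes apart from the rest of the transcriptome, and the sizes and directions are what the following values add. Groups of 3 libraries that do not overlap are named as a description. The share of all genes without overlap is not given, so this does not set a gene apart either.

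**Figure D2:**
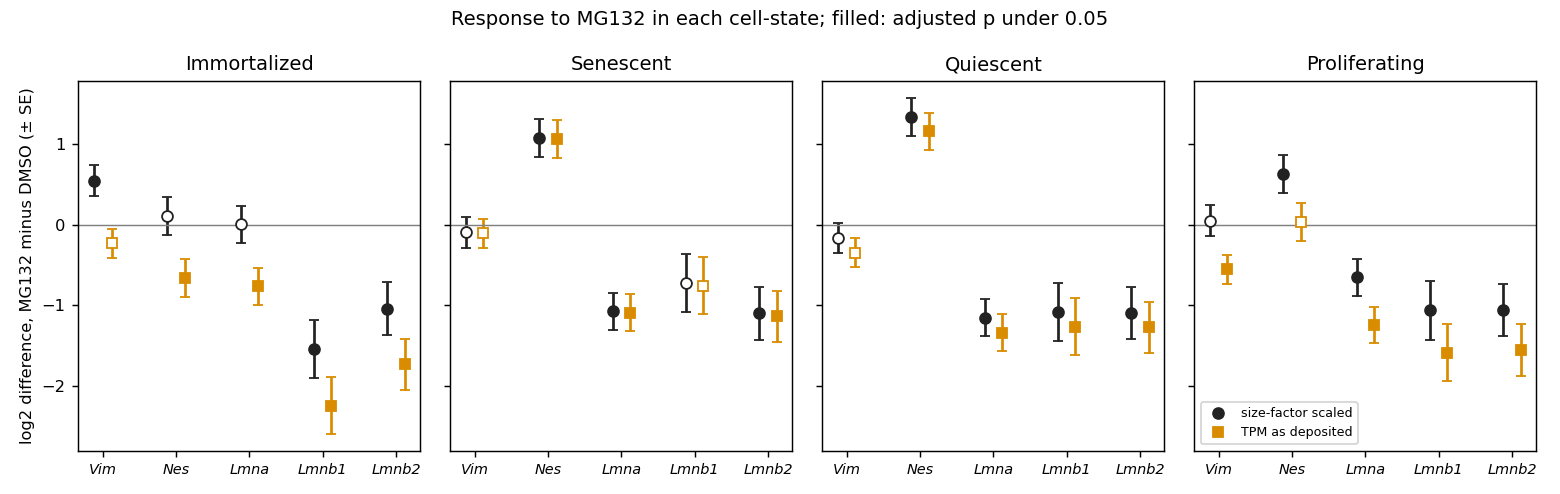
Difference between MG132 and DMSO on the log2 scale, with its standard error, for the 5 genes in each cell-state, after size-factor scaling (black circles) and in TPM as deposited (orange squares), filled where the adjusted p was under 0.05. Lmnb1 and Lmnb2 lie below 0 in every cell-state under both scalings and Nes above 0 in senescent and quiescent fibroblasts under both, while Vim in immortalized fibroblasts is at 0.54 after scaling and at -0.23 as deposited.

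Lmnb1, a B-type lamin gene, was lower under MG132 in each cell-state and passed the test in 3 of 4. Lmnb1 had 5.96, 9.63 and 5.81 TPM in the immortalized MG132 libraries, against 30.02, 64.9 and 25.4 TPM in the immortalized DMSO libraries. In senescent fibroblasts it had 3.98, 2.56 and 2.64 TPM under MG132, against 9.02, 4.84 and 4.32 TPM under DMSO. In quiescent fibroblasts it had 12.7, 5.88 and 7.67 TPM under MG132, against 16.8, 25.2 and 23.4 TPM under DMSO. The groups did not overlap in any of these 3 states, and senescent fibroblasts began at the lowest level. In proliferating fibroblasts Lmnb1 had 5.60, 5.33 and 4.37 TPM under MG132, against 24.2, 22.2 and 9.55 TPM under DMSO, where replicate 3 was the low one of its group but still above every MG132 library. After scaling, Lmnb1 differed by -1.54 ± 0.36 (SE) on the log2 scale in immortalized (adjusted p = 0.00124), -0.73 ± 0.36 in senescent (0.108), -1.09 ± 0.36 in quiescent (0.0168) and -1.06 ± 0.36 in proliferating fibroblasts (0.0193). The ratio of the mean levels was 0.300 in immortalized and 0.499 in senescent fibroblasts. Without proliferating DMSO replicate 3 the difference in proliferating fibroblasts was -1.42 (adjusted p = 0.0033), and without immortalized DMSO replicate 2 the one in immortalized fibroblasts was -1.10 (0.0122). The call in proliferating fibroblasts was lost without DMSO replicate 1 (-0.87, adjusted p = 0.0899), DMSO replicate 2 (-0.90, 0.0847) or MG132 replicate 3 (-1.01, 0.0581), and the call in quiescent fibroblasts without DMSO replicate 2 (-0.95, 0.0657) or MG132 replicate 2 (-0.88, 0.0806).

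Lmnb2, the other B-type lamin gene, was also lower under MG132 in each cell-state. It had 6.38, 7.80 and 4.83 TPM in immortalized MG132 libraries, against 20.3, 36.2 and 16.7 TPM in immortalized DMSO libraries. In senescent fibroblasts it had 2.77, 3.32 and 2.66 TPM under MG132, against 11.6, 7.14 and 5.20 TPM under DMSO. The groups were apart in both states, and DMSO replicate 1 was the highest of the senescent libraries. In quiescent fibroblasts Lmnb2 had 9.49, 3.93 and 6.55 TPM under MG132, against 13.7, 18.6 and 18.2 TPM under DMSO. In proliferating fibroblasts it had 3.73, 3.26 and 3.12 TPM under MG132, against 15.5, 15.7 and 6.67 TPM under DMSO, again without overlap. The scaled differences lay close together, at -1.04 in immortalized (adjusted p = 0.011), -1.10 in senescent (0.00948), -1.10 in quiescent (0.00881) and -1.06 in proliferating fibroblasts (0.011), each with an SE of 0.33. Lmnb2 therefore passed the test in all 4 cell-states, although in each of them at least 1 library left out ended the call. It was lost in immortalized fibroblasts without DMSO replicate 2 (-0.69, adjusted p = 0.0877) or MG132 replicate 3 (-0.91, 0.0509), in senescent fibroblasts without DMSO replicate 1 (-0.78, 0.0702), in quiescent fibroblasts without MG132 replicate 2 (-0.83, 0.0605), and in proliferating fibroblasts without DMSO replicate 1 (-0.91, 0.0533) or DMSO replicate 2 (-0.87, 0.0622).

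Lmna, the A-type lamin gene, fell in the 3 primary cell-states, and in immortalized fibroblasts its direction depended on the scale. It had 184, 149 and 149 TPM in senescent MG132 libraries, against 427, 356 and 262 TPM in senescent DMSO libraries. In quiescent fibroblasts it had 207, 167 and 177 TPM under MG132, against 404, 501 and 497 TPM under DMSO. In proliferating fibroblasts it had 139, 124 and 109 TPM under MG132, against 362, 369 and 192 TPM under DMSO. The 2 treatments did not overlap in these states as deposited. After scaling they overlapped in proliferating fibroblasts, where MG132 replicate 1 had 189.8 and DMSO replicate 3 had 183.6 scaled TPM. Scaled, Lmna fell by 1.08 ± 0.23 in senescent (adjusted p = 0.000801), by 1.16 ± 0.23 in quiescent (0.000386) and by 0.65 ± 0.23 in proliferating fibroblasts (0.0249) on the log2 scale. Without proliferating DMSO replicate 3 the last difference was -0.92 (adjusted p = 0.002), but its call was lost without each of 4 other libraries: DMSO replicate 1 (-0.54, adjusted p = 0.101), DMSO replicate 2 (-0.49, 0.130), MG132 replicate 2 (-0.62, 0.0649) and MG132 replicate 3 (-0.60, 0.0761). In immortalized fibroblasts Lmna had 186, 263 and 172 TPM under MG132, against 348, 417 and 285 TPM under DMSO, which is a ratio of 0.590 as deposited and of 1.004 after scaling. The log2 difference there was 0.0063 after scaling (adjusted p = 0.986) and -0.77 as deposited (adjusted p = 0.006), beside -0.57 for the median gene.

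Nes rose with MG132 in senescent and quiescent fibroblasts on every scale tried. It had 156, 136 and 102 TPM in senescent MG132 libraries, against 69.7, 52.1 and 63.3 TPM in senescent DMSO libraries. In quiescent fibroblasts it had 274, 157 and 169.7 TPM under MG132, against 75.7, 81.8 and 104 TPM under DMSO. The MG132 libraries were all above the DMSO libraries in both states, by 1.08 ± 0.24 on the log2 scale in senescent (adjusted p = 0.000895) and 1.34 ± 0.24 in quiescent fibroblasts (0.000107), or 2.14 and 2.61 times as ratios of the means. In the other states the picture hung on the scale. Nes had 228, 194 and 169.7 TPM in immortalized MG132 libraries, against 235, 449.7 and 281 TPM in immortalized DMSO libraries, which is 0.11 after scaling (adjusted p = 0.717) and -0.66 as deposited (0.018). In proliferating fibroblasts it had 187, 181 and 209.8 TPM under MG132, against 236, 181 and 155 TPM under DMSO, which is 0.63 after scaling (adjusted p = 0.0321) and 0.032 as deposited (0.914). The scaled difference was no longer called without proliferating DMSO replicate 3 (0.53, adjusted p = 0.0984), DMSO replicate 2 (0.60, 0.0823), MG132 replicate 1 (0.65, 0.0568) or MG132 replicate 3 (0.53, 0.121).

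Vim passed the test in none of the 3 primary cell-states after scaling. It had 23584, 21281 and 22755 TPM in senescent MG132 libraries, against 25870.2, 25968 and 21174 TPM in senescent DMSO libraries, which overlap. In quiescent fibroblasts it had 11146, 11448 and 11383 TPM under MG132, against 13906, 14989.7 and 14439 TPM under DMSO. These quiescent groups did not overlap as deposited or after scaling (10278 to 10972 scaled TPM with MG132 and 11474 to 12939 with DMSO), and the scaled difference of -0.17 ± 0.19 was not called (adjusted p = 0.486), nor was that of -0.092 ± 0.19 in senescent fibroblasts (0.727). In proliferating fibroblasts Vim had 8956, 9216 and 7513 TPM under MG132, against 13899, 14918 and 9455 TPM under DMSO. There the scaled difference was 0.048 ± 0.19 (adjusted p = 0.856), while as deposited it was -0.55 (0.012) and with the final scaling to a fixed total undone -0.50 (0.042). In immortalized fibroblasts Vim had 11071, 13779 and 10915 TPM under MG132, against 15473, 13666 and 12711 TPM under DMSO, and the groups overlapped. Scaled, the ratio of means was 1.46 and the difference 0.54 ± 0.19 (adjusted p = 0.0218), and as deposited the ratio was 0.855 and the difference -0.23 (0.277). The call was lost without immortalized DMSO replicate 3 (0.45, adjusted p = 0.0965) and without immortalized MG132 replicate 2 (0.43, adjusted p = 0.1051).

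The responses were then compared between cell-states by the interaction term. Against senescent fibroblasts (38.5% of all genes called, 18.8% higher and 19.6% lower), the response of immortalized fibroblasts differed for Lmna by 1.08 ± 0.33 (adjusted p = 0.0133) and for Nes by -0.97 ± 0.33 (0.0274). Against quiescent fibroblasts (31.1% of all genes called, 15.6% higher and 15.6% lower), it differed for Lmna by 1.16 ± 0.33 (adjusted p = 0.0109) and for Nes by -1.23 ± 0.33 (0.0085). The Nes differences were called as deposited too (-1.73 against senescent and -1.82 against quiescent fibroblasts), while those of Lmna were not (0.33, adjusted p = 0.405, and 0.57, adjusted p = 0.154). Against senescent fibroblasts, 2 of the 5 genes were called lower as deposited, with Nes among them. The Nes difference against senescent fibroblasts lost its call in 5 of the 12 fits that left out 1 library: without immortalized DMSO replicate 2 (-0.66, adjusted p = 0.0837), immortalized MG132 replicate 3 (-0.90, 0.0613), senescent DMSO replicate 2 (-0.83, 0.0735), senescent MG132 replicate 1 (-0.84, 0.0727) and senescent MG132 replicate 2 (-0.93, 0.0555). These comparisons share the immortalized libraries. Vim was at 0.64 against senescent (adjusted p = 0.07) and at 0.71 against quiescent fibroblasts (0.0527), and the second was called with the replicate number as a block (0.0451). After scaling, none of the 5 genes was called for the responses of immortalized and proliferating (11.6% of all genes called) or senescent and proliferating fibroblasts (18.8%). The same held for quiescent and proliferating (13.0%) and for senescent and quiescent fibroblasts (20.3%). At an unadjusted p under 0.05 limma had 1 member, Nes between quiescent and proliferating fibroblasts, and 0 in each of the other 3. The scale changed this. As deposited, 1 of the 5 genes was called higher for senescent minus proliferating and 1 for quiescent minus proliferating fibroblasts. The counts were the same with the final scaling to a fixed total undone.

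Quiescent and immortalized fibroblasts are the cell-states in which the study saw aggresomes, so their mean response was set against that of proliferating and senescent fibroblasts. None of the 5 genes was called in this contrast, in which 19.7% of all genes tested were called, 1407 higher and 1252 lower; limma had 0 of the 5 at an unadjusted p under 0.05 as well. The difference was 0.21 ± 0.19 for Vim (adjusted p = 0.489), -0.13 for Nes (0.756), 0.29 for Lmna (0.422), -0.42 for Lmnb1 (0.463) and 0.0092 for Lmnb2 (0.989). With each library left out in turn, the difference for Vim stayed between 0.15 and 0.29. With array weights, which give libraries that spread more less weight, Vim (0.35, adjusted p = 0.020) and Lmna (0.45, 0.0097) were called in this contrast.

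Under DMSO, senescent fibroblasts had more Vim and less Nes and Lmnb1 than proliferating fibroblasts. Senescent fibroblasts averaged 24337 ± 2740 TPM of Vim, against 12757 ± 2905 TPM in proliferating fibroblasts (SD, n = 3 each), and their libraries did not overlap. Scaled, this was a ratio of 1.82 and a difference of 0.87 ± 0.19 (adjusted p = 0.00125), in a comparison in which 40.8% of all genes were called, 21.0% higher and 19.8% lower. Nes was lower, with 61.7 ± 8.90 TPM in senescent and 191 ± 41.2 TPM in proliferating fibroblasts, a difference of -1.68 ± 0.24 (adjusted p = 1.28e-05), or 3.23 times lower. Lmnb1 was 3.15 times lower, with 6.06 ± 2.58 TPM in senescent and 18.6 ± 7.92 TPM in proliferating fibroblasts (-1.48 ± 0.36, adjusted p = 0.00277), the gene of the study's own criterion. Lmnb2 (-0.64, adjusted p = 0.129) and Lmna (0.13, adjusted p = 0.698) were not called. Without proliferating DMSO replicate 3 the Lmnb2 difference was -0.97 and called (adjusted p = 0.0282), Lmnb1 was at -1.84 (0.0007) and Vim at 0.71 (0.0039).

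Senescent fibroblasts differed from quiescent fibroblasts in the same 2 genes of opposite direction, and in Lmnb2 as well (39.1% of all genes called, 19.8% higher and 19.3% lower). Vim averaged 24337 ± 2740 TPM in senescent, against 14445 ± 542 TPM in quiescent fibroblasts, a scaled ratio of 1.75 (0.79 ± 0.19, adjusted p = 0.00285). Lmnb1 had 6.06 ± 2.58 TPM in senescent and 21.8 ± 4.39 TPM in quiescent fibroblasts (-1.66 ± 0.36, adjusted p = 0.00125), and Lmnb2 had 7.99 ± 3.29 TPM in senescent and 16.8 ± 2.73 TPM in quiescent fibroblasts (-0.98 ± 0.33, adjusted p = 0.023). The Lmnb2 call was lost in 4 of the 6 fits that left out 1 library: without senescent replicate 2 (-0.92, adjusted p = 0.0703), senescent replicate 3 (-0.72, 0.131), quiescent replicate 2 (-0.88, 0.0835) and quiescent replicate 3 (-0.95, 0.0604). It was also lost with the scaling to a fixed total undone (-0.81, adjusted p = 0.052). Nes was at -0.44 (adjusted p = 0.149) and Lmna at -0.40 (0.185). Between quiescent and proliferating fibroblasts, with 30.2% of all genes called and 14.7% called lower, Nes was the member that passed the test: it had 87.1 ± 14.9 TPM in quiescent and 191 ± 41.2 TPM in proliferating fibroblasts (-1.24 ± 0.24, adjusted p = 0.000533). Lmna, at 467 ± 54.8 TPM in quiescent and 308 ± 100.1 TPM in proliferating fibroblasts, missed the threshold after scaling (0.52, adjusted p = 0.0956) and passed it as deposited (0.65, adjusted p = 0.032).

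Immortalized fibroblasts held the most Nes and B-type lamin RNA of the DMSO groups. Nes averaged 322 ± 113 TPM in immortalized and 61.7 ± 8.90 TPM in senescent fibroblasts, a scaled ratio of 5.55 (2.40 ± 0.24, adjusted p = 8.78e-08), where 60.1% of all genes were called, 29.3% higher and 30.8% lower. Lmnb1 had 40.1 ± 21.6 TPM in immortalized and 6.06 ± 2.58 TPM in senescent fibroblasts, a log2 difference of 2.52 ± 0.36 (adjusted p = 7.24e-06), and Lmnb2 had 24.4 ± 10.3 TPM in immortalized and 7.99 ± 3.29 TPM in senescent fibroblasts, a ratio of 3.22 (adjusted p = 0.00044). Vim went the other way and was 1.65 times lower in immortalized than in senescent fibroblasts (-0.72 ± 0.19, adjusted p = 0.00312). Against quiescent fibroblasts, with 50.2% of all genes called and 25.1% called higher, Nes was 4.10 times higher in immortalized fibroblasts (1.96 ± 0.24, adjusted p = 2.02e-06). Lmnb1 was 2.04 times higher but missed the threshold (0.87 ± 0.36, adjusted p = 0.0523, or 0.039 with the replicate number as a block). Without immortalized DMSO replicate 2 the Lmnb1 difference was 0.43 (adjusted p = 0.347). Lmnb2 was not called either (0.57, adjusted p = 0.159, or 0.22 and 0.633 without that library). Against proliferating fibroblasts, with 35.7% of all genes called and 18.0% called higher, Nes (0.72, adjusted p = 0.0232), Lmnb1 (1.04, 0.0308) and Lmnb2 (0.91, 0.0369) were called higher in immortalized fibroblasts. All 3 of these calls were lost without either of the libraries that stood apart: without immortalized DMSO replicate 2 the differences were 0.41 (adjusted p = 0.1925), 0.60 (0.2309) and 0.56 (0.2423), and without proliferating DMSO replicate 3 they were 0.62 (0.0794), 0.68 (0.1685) and 0.57 (0.1984). Nes was not called without proliferating DMSO replicate 2 either (0.69, adjusted p = 0.0591).

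**Figure D3:**
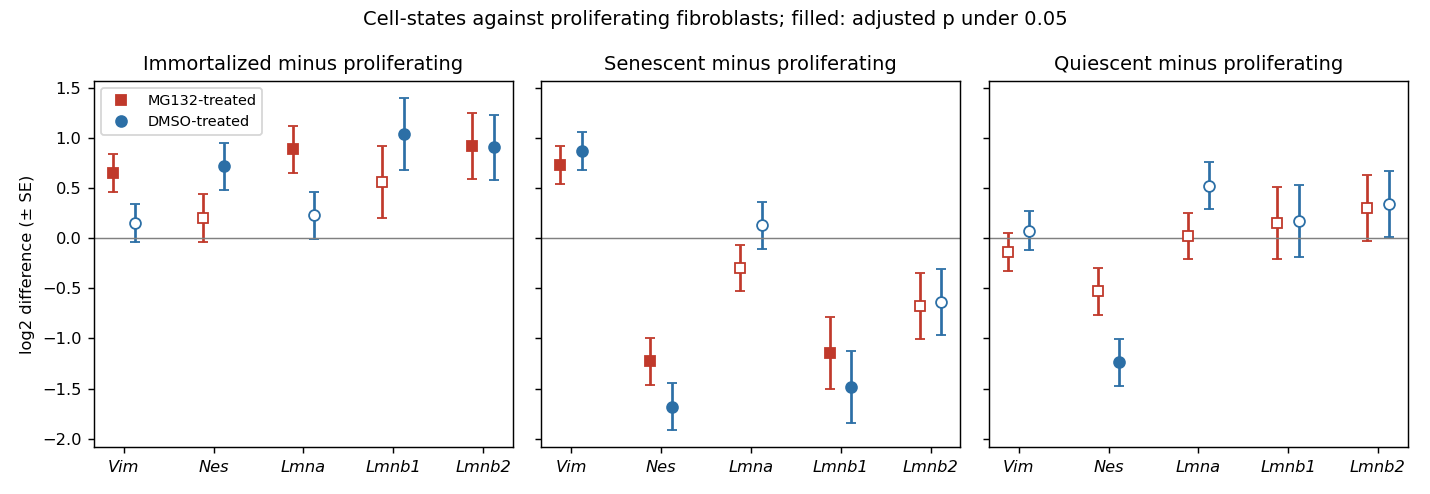
Scaled log2 difference with its standard error of immortalized, senescent and quiescent fibroblasts from proliferating fibroblasts, for the 5 genes, in MG132 libraries (red squares) and DMSO libraries (blue circles), filled where the adjusted p was under 0.05. In senescent fibroblasts Vim is higher under both treatments (0.73 with MG132 and 0.87 with DMSO) and Nes and Lmnb1 are lower under both, while Lmna in immortalized fibroblasts is at 0.89 with MG132 and 0.23 with DMSO.

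The MG132 libraries gave the same pairs a second time, in samples that the DMSO comparisons do not use. Both sets share the starting pool of cells and the model's estimate of the spread, so the second is not an independent test. Senescent fibroblasts again had more Vim than proliferating ones, with 22540 ± 1166 TPM in senescent MG132 and 8561 ± 917 TPM in proliferating MG132 libraries (0.73, adjusted p = 0.00343; 52.2% of all genes called, 27.0% higher and 25.2% lower). Nes (-1.23, adjusted p = 0.000229) and Lmnb1 (-1.15, 0.0119) were again lower in senescent fibroblasts, although Lmnb1 was not called as deposited (-0.60, adjusted p = 0.142). With the final scaling to a fixed total undone, neither Nes (adjusted p = 0.0589) nor Lmnb1 was called. Lmna was at -0.30 after scaling and at 0.37 as deposited, called in neither. Senescent against quiescent fibroblasts (39.3% called, 20.8% higher and 18.5% lower) showed Vim at 0.87 (adjusted p = 0.00149), Lmnb1 at -1.30 (0.00786), Lmnb2 at -0.98 (0.0228) and Nes at -0.70 (0.0243), of which Nes was not called as deposited (-0.58, adjusted p = 0.0544). Leaving out 1 library at a time ended the call of Lmnb2 in 4 of 6 fits, of Nes in 2 and of Lmnb1 in 1, with adjusted p-values of up to 0.124, 0.157 and 0.0522. None of the 5 was called between quiescent and proliferating fibroblasts under MG132 (22.8% called), where Nes was at -0.53 (adjusted p = 0.115) and was the 1 member with an unadjusted p under 0.05 by limma. As deposited, Lmna was called there (0.56, adjusted p = 0.0441), against 0.022 after scaling. The direction of Nes and Vim changed with the scale there. The ratio of the means was 0.707 scaled and 1.04 as deposited for Nes, and 0.909 and 1.32 for Vim.

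Under MG132, Lmna was higher in immortalized fibroblasts than in each of the other cell-states after scaling. Lmna was higher than in senescent MG132 libraries by 1.18 (adjusted p = 0.000165; 67.6% called, 32.6% higher), than in quiescent ones by 0.86 (0.00405; 54.3% called, 27.4% higher) and than in proliferating ones by 0.89 (0.00675; 35.5% called, 17.8% higher). As deposited, the levels were 207 ± 49.0 TPM in immortalized, 161 ± 20.3 TPM in senescent, 184 ± 21.1 TPM in quiescent and 124 ± 15.1 TPM in proliferating MG132 libraries. Against senescent MG132 libraries, immortalized ones were also higher in Nes (1.43, adjusted p = 2.67e-05), Lmnb1 (1.71, 0.000349) and Lmnb2 (1.60, 0.000252), as under DMSO. Vim was called higher in immortalized than in quiescent (0.78, adjusted p = 0.00202) and proliferating (0.65, 0.0137) MG132 libraries after scaling. Nes was higher in immortalized than in quiescent MG132 libraries (0.73, adjusted p = 0.0136), and Lmnb2 was higher in immortalized than in proliferating MG132 libraries (0.92, adjusted p = 0.0347). With 1 library left out at a time, this Lmnb2 call was lost in 5 of 6 fits (adjusted p of up to 0.137), that of Nes against quiescent libraries in 2 (up to 0.0740) and that of Vim against proliferating libraries in 1 (0.0784). Several of these calls depended on the scale. As deposited, none of the 3 members called between immortalized and quiescent MG132 libraries was called (Vim 0.066, Nes 0.014 and Lmna 0.15), nor was Lmnb2 between immortalized and proliferating ones (0.73, adjusted p = 0.0883) or Lmna between immortalized and senescent ones (0.34, adjusted p = 0.172). Vim was then called lower in immortalized than in senescent MG132 libraries (-0.93, adjusted p = 0.000107), where the scaled difference was -0.083. Between immortalized and quiescent MG132 libraries, Lmnb1 and Lmnb2 were called on neither scale and changed direction. Their ratios of the means were 1.35 and 1.57 scaled, and 0.815 and 0.952 as deposited.

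Ordered by scaled level over all 8 groups, few neighbours could be told apart. For Vim, both senescent groups led, followed by immortalized MG132, and the step that passed the test was the next one, down to immortalized DMSO (0.54, adjusted p = 0.022). For Nes, both immortalized groups led and the last places went to senescent MG132, quiescent DMSO and senescent DMSO; the steps from proliferating DMSO to senescent MG132 (0.60, adjusted p = 0.037) and from there to quiescent DMSO (0.64, adjusted p = 0.023) passed. For Lmna, which ran from quiescent DMSO down to senescent MG132, and for Lmnb1 and Lmnb2, which both ran from immortalized DMSO down to senescent MG132, no step between neighbours passed.

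Ratios between genes of 1 library do not depend on how libraries are scaled, and they are given as a description. There was 6.43 to 73.6 times as much Lmna as Lmnb1 TPM. In immortalized fibroblasts the Lmna to Lmnb1 ratio was 31.2, 27.3 and 29.6 under MG132, against 11.6, 6.43 and 11.3 under DMSO. In proliferating fibroblasts it was 24.8, 23.4 and 24.9 under MG132, against 15.0, 16.7 and 20.1 under DMSO. The treatments did not overlap in either state, and A-type lamin RNA gained on lamin B1 RNA in both. In senescent fibroblasts the ratio was 46.2, 58.1 and 56.6 under MG132, against 47.3, 73.6 and 60.6 under DMSO, and in quiescent fibroblasts it was 16.3, 28.4 and 23.1 under MG132, against 24.004, 19.9 and 21.2 under DMSO. There the treatments overlapped, and the senescent groups had the highest ratios of the 4 cell-states.

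Lmna made up most of the lamin RNA throughout, from 85.0% of the summed TPM of the 3 lamin genes on average in immortalized DMSO libraries to 96.4% in senescent MG132 libraries. The B-type lamins also shifted against each other. Lmnb2 to Lmnb1 was 1.32 ± 0.14 in senescent DMSO libraries, against 0.777 ± 0.037 in quiescent and 0.683 ± 0.036 in proliferating DMSO libraries, so lamin B2 transcripts outnumbered lamin B1 transcripts under DMSO in senescent fibroblasts. In immortalized fibroblasts this ratio was 1.07, 0.810 and 0.831 under MG132, against 0.676, 0.557 and 0.659 under DMSO.

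**Figure D4:**
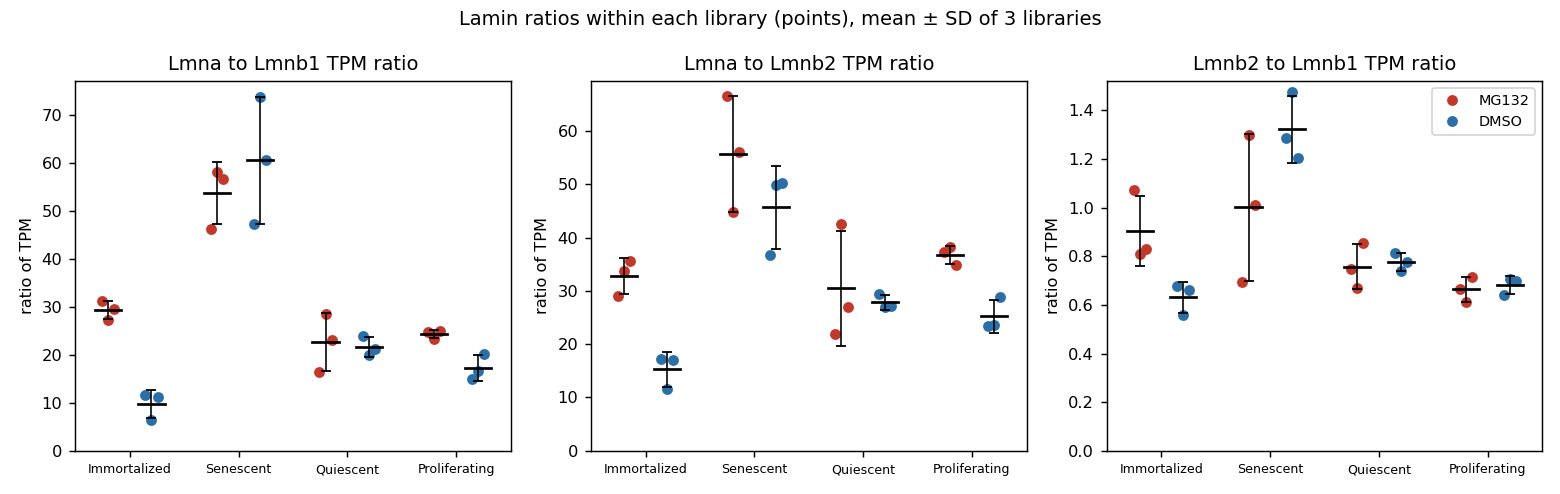
Ratios of TPM within each library for Lmna to Lmnb1, Lmna to Lmnb2 and Lmnb2 to Lmnb1, by cell-state, with MG132 (red) left of DMSO (blue); points are libraries, and lines and bars are the mean ± SD of 3. Lmna to Lmnb1 is higher under MG132 without overlap in immortalized (27.3 to 31.2 with MG132 and 6.43 to 11.6 with DMSO) and proliferating fibroblasts, and Lmnb2 to Lmnb1 is above 1 in each senescent DMSO library.

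Vim gained on Lmna under MG132 in every cell-state, whatever the scale. The Vim to Lmna ratio was 59.6, 52.4 and 63.5 in immortalized MG132 libraries, against 44.5, 32.7 and 44.6 in immortalized DMSO libraries. It averaged 141 ± 12.3 in senescent MG132 and 71.5 ± 10.2 in senescent DMSO libraries, 62.2 ± 7.63 in quiescent MG132 and 31.1 ± 2.87 in quiescent DMSO libraries, and 69.2 ± 4.80 in proliferating MG132 and 42.7 ± 5.73 in proliferating DMSO libraries. No MG132 library overlapped the DMSO libraries of its state. Vim to Nes ran the other way in the 3 primary cell-states: it averaged 176 in senescent MG132 and 401 in senescent DMSO libraries, 60.2 in quiescent MG132 and 169 in quiescent DMSO libraries, and 44.9 in proliferating MG132 and 67.4 in proliferating DMSO libraries. In proliferating fibroblasts the MG132 libraries (35.8 to 51.0) lay below the DMSO libraries (58.9 to 82.6). In immortalized fibroblasts the Vim to Nes ratio was 48.5, 71.0 and 64.3 under MG132, against 65.7, 30.4 and 45.3 under DMSO, which overlap.

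Lmnb1 and Lmnb2 rose and fell with the cell cycle genes over the libraries, but not in step with them under MG132 in every cell-state. Over the 24 libraries, the scaled log2 level of Lmnb1 and the mean of the 22 cell cycle genes had a Pearson's r of 0.91, with 0.99 within the 12 DMSO and 0.90 within the 12 MG132 libraries. For Lmnb2 these were 0.87, 0.96 and 0.94. The libraries share their groups and size factors, so these are descriptions. Nes was at 0.63 over all libraries, 0.83 within DMSO and 0.88 within MG132, Lmna at 0.66, 0.46 and 0.94, and Vim at -0.26, -0.50 and 0.069. The libraries named above as standing apart lie on this relation: immortalized DMSO replicate 2 has the highest cell cycle mean and the highest Lmnb1 (62.1 scaled TPM), and proliferating DMSO replicate 3 is the lowest of its group in both. The MG132 libraries of immortalized fibroblasts lay off the line of the DMSO libraries: their cell cycle means were 4.67 to 5.49 and their Lmnb1 levels 8.70 to 15.1 scaled TPM, against DMSO replicates 1 and 3 with cell cycle means of 5.03 and 4.72 and Lmnb1 levels of 26.9 and 21.9 scaled TPM. In senescent fibroblasts the cell cycle mean was 2.47 with DMSO and 2.39 with MG132. Lmnb1 averaged 5.28 scaled TPM with DMSO and 2.64 with MG132 there, and Lmnb2 6.95 and 2.52. In quiescent and proliferating fibroblasts the cell cycle mean was lower with MG132 too, at 3.32 against 4.27 and at 3.61 against 4.21. In bulk RNA, fewer cycling cells and less Lmnb1 RNA in each cell cannot be told apart.

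**Figure D5:**
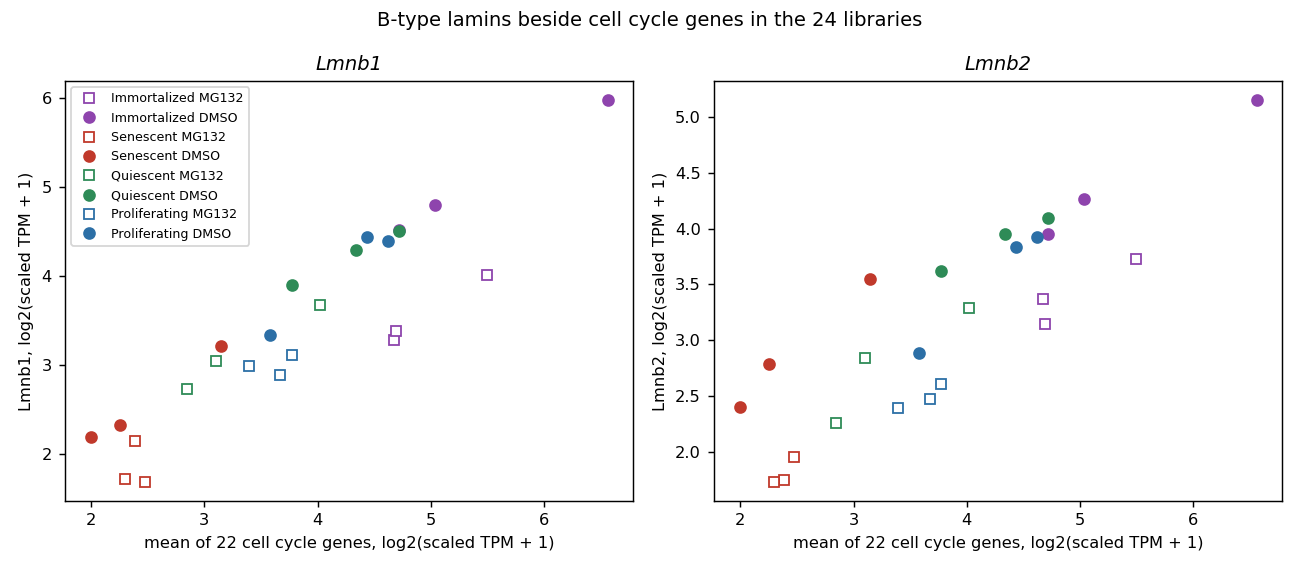
Scaled log2(TPM + 1) of Lmnb1 and of Lmnb2 against the mean over 22 cell cycle genes, 1 point for each of the 24 libraries, with colour for the cell-state, open squares for MG132 and filled circles for DMSO. Both rise with the cell cycle mean (r = 0.91 for Lmnb1 and 0.87 for Lmnb2), and the immortalized MG132 libraries lie below the DMSO libraries of the same cell cycle mean.

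The genes with patterns most like each member were found by Pearson's r over the 24 libraries among the 7682 genes whose mean reached 10 TPM. For Lmnb1 they were Parp1, which encodes a poly(ADP-ribose) polymerase of DNA repair (0.982), Samhd1, a dNTP hydrolase (0.978), and Tk1, the thymidine kinase of S phase (0.977). For Lmnb2 they were Anln, the cytokinesis protein anillin (0.978), Dnmt1, the maintenance DNA methyltransferase (0.977), and Mthfd1, an enzyme of folate metabolism (0.975). Nes was closest to Sdad1 (0.979), Pkp4 (0.976) and Mybbp1a (0.976), and Lmna to Trap1, a mitochondrial chaperone (0.962), Carm1 (0.955) and Acsf3 (0.955). Vim was closest to Ass1, argininosuccinate synthase (0.965), Rab3b (0.948) and Gm4316 (0.936). Among the members, Lmnb1 and Lmnb2 were at 0.96, Lmna and Lmnb2 at 0.86, Lmna and Lmnb1 at 0.74, and Vim and Nes at -0.32.

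Other genes that work with these filaments were counted in lists. Of all genes tested, MG132 gave calls for 53.3% in immortalized, 46.1% in senescent, 52.2% in quiescent and 49.9% in proliferating fibroblasts. The counts of each list below are to be read beside these shares, and no list was tested as a set. Of 20 other cytoplasmic intermediate filament genes, 15 passed the filter on low values, and under MG132 the higher and lower calls were 10 against 1 in immortalized, 2 against 3 in senescent, 4 against 0 in quiescent, and 6 against 1 in proliferating fibroblasts. Their median difference was 0.66, 0.10, 0.21 and 0.19 in that order of cell-states, while the median over all genes tested lay between -0.034 and 0.011. As deposited, the counts in immortalized fibroblasts were 4 and 1 and in proliferating fibroblasts 3 and 2. Krt20, a keratin of simple epithelia, rose in quiescent fibroblasts by 2.57 (22.1 ± 8.25 TPM under MG132 and 3.18 ± 1.51 TPM under DMSO, adjusted p = 3.26e-06), and the neurofilament gene Nefm rose by 2.17 there (8.18e-06) and by 1.72 in senescent fibroblasts (0.000106). Krt19 fell by 1.45 in senescent (adjusted p = 0.000227) and rose by 1.09 in immortalized fibroblasts (0.00221). Like Nes, Krt20 and Nefm rose with MG132 in senescent, quiescent and proliferating fibroblasts after scaling.

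Of 14 genes for linkers of filaments and the cytoskeleton, 12 were tested, and the higher and lower calls under MG132 were 3 against 5 in immortalized, 1 against 5 in senescent, 4 against 2 in quiescent, and 3 against 5 in proliferating fibroblasts. Plec encodes plectin, which crosslinks vimentin filaments to other structures, and it had 20.3 ± 4.08 TPM in senescent MG132 and 81.9 ± 10.9 TPM in senescent DMSO libraries (-1.95 ± 0.30, adjusted p = 2.99e-05). It fell by 1.52 in proliferating fibroblasts (adjusted p = 0.000321) and by 0.97 in quiescent fibroblasts (0.0113) as well. Fscn1, the gene of the actin-bundling protein fascin, fell in all 4 cell-states, most in proliferating fibroblasts, with 62.8 ± 6.91 TPM under MG132 and 363 ± 65.9 TPM under DMSO (-1.91, adjusted p = 1.01e-08). Flnc, a filamin gene, rose by 2.32 in immortalized fibroblasts (adjusted p = 2.32e-07).

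Nuclear envelope proteins that bind lamins made up a list of 21 genes, and under MG132 the higher and lower calls were 1 against 6 in immortalized, 6 against 4 in senescent, 3 against 2 in quiescent, and 5 against 6 in proliferating fibroblasts. As deposited, these were 0 against 15 in immortalized and 0 against 14 in proliferating fibroblasts. Tmpo, the gene of thymopoietin, had 27.6 ± 9.88 TPM in immortalized MG132 and 136 ± 99.9 TPM in immortalized DMSO libraries (-1.33, adjusted p = 0.0221), and fell by 1.14 in proliferating fibroblasts (0.0496). Without immortalized DMSO replicate 2 the Tmpo difference in immortalized fibroblasts was -0.73 and not called (adjusted p = 0.179), and the counts there were 5 against 5. Syne2, a nesprin gene whose product ties the nucleus to the cytoskeleton, rose by 1.98 in senescent fibroblasts (adjusted p = 0.00129), and Lbr, the gene of the lamin B receptor, rose by 0.75 (0.0129). Under DMSO the counts were 12 higher and 1 lower in immortalized against senescent, 11 and 1 in immortalized against quiescent, and 8 and 0 in immortalized against proliferating fibroblasts, or 10 and 1, 9 and 1, and 6 and 1 without immortalized DMSO replicate 2. With every library kept, 60.1%, 50.2% and 35.7% of all genes were called in that order of comparisons. Of all genes, 29.3%, 25.1% and 18.0% were called higher. Lbr had 7.31 ± 1.58 TPM in senescent and 15.96 ± 2.51 TPM in proliferating DMSO libraries (-1.10, adjusted p = 0.000977), the same direction as Lmnb1.

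Enzymes that mature the lamins numbered 6. Fnta, which encodes the alpha subunit of farnesyltransferase, fell under MG132 in all 4 cell-states, by 0.69 in immortalized (adjusted p = 0.000122), 0.52 in senescent (0.00215), 0.88 in quiescent (1.35e-05) and 0.51 in proliferating fibroblasts (0.00224). Pggt1b, a subunit of a related prenyltransferase, rose in all 4 after scaling, most in immortalized fibroblasts (1.17, adjusted p = 9.4e-08). Icmt, the methyltransferase that acts on farnesylated lamins, rose by 0.56 in senescent (adjusted p = 0.00564), 0.63 in quiescent (0.00211) and 0.46 in proliferating fibroblasts (0.018). In proliferating fibroblasts its deposited mean went against this, with 31.1 ± 4.11 TPM under MG132 and 33.9 ± 3.73 TPM under DMSO. The higher and lower calls for the list were 1 against 3 in immortalized, 2 against 1 in senescent, 2 against 2 in quiescent, and 2 against 2 in proliferating fibroblasts. Under DMSO, Zmpste24, the protease that cleaves prelamin A, was higher in senescent than in proliferating fibroblasts by 0.25 (77.6 ± 4.66 TPM in senescent and 61.6 ± 6.37 TPM in proliferating fibroblasts, adjusted p = 0.00702).

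Of 12 genes for kinases, phosphatases and anchors of the lamina, the higher and lower calls under MG132 were 2 against 2 in immortalized, 3 against 2 in senescent, 2 against 3 in quiescent, and 3 against 2 in proliferating fibroblasts. Akap8l rose in all 4 cell-states, by 1.14 in immortalized (adjusted p = 0.00017), 1.40 in senescent (2.79e-05), 0.58 in quiescent (0.0296) and 1.61 in proliferating fibroblasts (5.3e-06). Akap1, which encodes an anchor of protein kinase A, fell by 1.83 in immortalized fibroblasts (adjusted p = 5.3e-10). Ccnb1, the gene of cyclin B1, whose kinase phosphorylates lamins at mitosis, fell by 1.74 in proliferating (adjusted p = 0.0363) and by 1.82 in quiescent fibroblasts (0.0283).

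The cell cycle genes were counted in the same way. Under DMSO, 1 of its 22 genes was called higher and 18 lower in senescent against proliferating fibroblasts, and 21 were called higher and 0 lower in immortalized against senescent fibroblasts, with medians of -2.06 and 3.37. Immortalized against proliferating fibroblasts had 9 called higher and 0 lower. Of all genes tested, 40.8%, 60.1% and 35.7% were called in these comparisons, in that order. Under MG132, the higher and lower calls were 2 against 6 in immortalized, 3 against 1 in senescent, 1 against 11 in quiescent, and 3 against 4 in proliferating fibroblasts, while Lmnb2 was called lower in each. Without proliferating DMSO replicate 3 the calls in proliferating fibroblasts were 3 against 11, and without immortalized DMSO replicate 2 those in immortalized fibroblasts were 4 against 2. Plk1, a mitotic kinase gene, had 2.12 ± 0.70 TPM in proliferating MG132 and 32.9 ± 18.3 TPM in proliferating DMSO libraries (-2.81, adjusted p = 0.0014), and Cdt1, a replication licensing gene, rose by 1.34 (9.9e-05).

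Of 12 senescence markers, 5 were called higher and 2 lower in senescent against proliferating fibroblasts under DMSO. In that comparison 40.8% of all genes were called, 21.0% higher and 19.8% lower. Cdkn2a, which encodes an inhibitor of cyclin-dependent kinases, had 599.5 ± 191 TPM in senescent and 110.4 ± 4.92 TPM in proliferating fibroblasts (2.30, adjusted p = 1.54e-08), and Gpnmb had 432 ± 32.5 TPM in senescent and 26.6 ± 2.13 TPM in proliferating fibroblasts. Hmgb2 fell with Lmnb1 in senescent fibroblasts, with 5.16 ± 4.42 TPM in senescent and 30.5 ± 10.6 TPM in proliferating fibroblasts (-2.56, adjusted p = 0.000457). Under MG132, 6 of the 12 were called higher and 1 lower in immortalized, 2 against 4 in senescent, 2 against 4 in quiescent, and 4 against 2 in proliferating fibroblasts. Lmnb1 fell in the immortalized, quiescent and proliferating fibroblasts treated with MG132 as well, so a fall of Lmnb1 was not limited to senescence. The senescent groups still had the lowest means of all groups, at 5.28 scaled TPM with DMSO and 2.64 with MG132.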

How the data were processed

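Poly(A) RNA of 24 libraries in 8 groups of 3 was analysed, and groups were taken from the sample labels. The authors deposited TPM for 19880 genes. For these values, the authors' methods name Cutadapt, kallisto on GRCm38 with ERCC spike-in sequences, RUVg for normalization to the spike-in and DESeq2 for tests. The submitters' processing notes list another set of tools (HISAT2, StringTie and others), and the sources used here do not settle which set made the table. The table held 0 ERCC entries. TPM carries no depth, so counting intervals could not be given, and its fixed total hides a shift shared by every gene of a library.

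Size factors came from median ratios over the 13243 genes above 0 throughout, and values were divided by them. limma 3.58.1 (R 4.3.3, trend) was fitted to log2(scaled TPM + 1), which understates changes of low genes, for the 13489 genes that reached 1 TPM in 3 or more libraries. A single model held the 8 groups, with 16 residual degrees of freedom, and p-values were adjusted by Benjamini-Hochberg within each of 23 comparisons. Figures used Python 3.11.15 and matplotlib 3.10.9. The fit was also run on simulated libraries in which far fewer genes changed than were called here. The outcome is not given and is not a check of these calls.

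The members, lists and tests were chosen with earlier results of these data known. Named genes of a list are its 2 largest called rises and falls in a comparison, if their mean reached 10 TPM in 1 of the groups. Genes most like a member were the 3 with the highest Pearson's r. The alternatives were: unscaled deposited TPM; the final scaling to a fixed total undone, from the spacing of low values; TMM factors; a pseudocount of 0.1 or 5; a minimum of 5 TPM or none; a fit of the compared libraries alone; a block for replicate number; no trend; array weights; and leaving out each library. Ratios of 2 genes and correlations are descriptions without a test. The SV40 T transgene was not analysed here, and the promoter of Lmnb1 is not shown.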

Additional observations from a re-analysis of the deposited data

Results flagged for a closer look

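The response of Nes and Lmna to MG132 differed between cell-states by the interaction term of the model. For Nes, the response of immortalized fibroblasts minus that of senescent fibroblasts was -0.97 on the log2 scale (limma, adjusted p = 0.0274), and minus that of quiescent fibroblasts it was -1.23 (0.0085). For Lmna, these differences were 1.08 (adjusted p = 0.0133) and 1.16 (0.0109). Both genes share the immortalized libraries between the comparisons, and the Lmna differences were not called in TPM as deposited, where they were 0.33 and 0.57. The Nes difference against senescent fibroblasts lost its call in 5 of the 12 fits that left out 1 library, with adjusted p-values of up to 0.0837.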

How the results depend on the processing

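The limits are these. TPM keeps no depth, each group has 3 libraries, and the direction of Vim, Nes and Lmna in immortalized and of Vim in proliferating fibroblasts depended on how libraries were scaled. Of 71 member results under each alternative, 57 kept their direction and call in unscaled TPM, 56 with the final scaling to a fixed total undone, 66 with TMM factors, 71 with a pseudocount of 0.1, 66 with 5, 64 with no filter, 68 with a filter of 5 TPM, 69 without a trend, 50 with array weights and 69 with the replicate block. The cause of a change was not tested.

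In TPM as deposited, the MG132 response was -0.55 for Vim and 0.032 for Nes in proliferating fibroblasts, and -0.23 for Vim, -0.66 for Nes and -0.77 for Lmna in immortalized fibroblasts. Lmna in quiescent against proliferating DMSO libraries was 0.65, Vim in immortalized against quiescent DMSO libraries -0.054, Lmna in senescent against proliferating MG132 libraries 0.37, the Vim response of immortalized minus senescent fibroblasts -0.12, and Lmnb2 between aggresome-forming and other cell-states -0.16. With the scaling to a fixed total undone, the MG132 response was -0.50 for Vim and 0.088 for Nes in proliferating fibroblasts, and -0.14 for Vim, -0.56 for Nes and -0.67 for Lmna in immortalized fibroblasts. Lmnb2 in senescent against quiescent DMSO libraries was then -0.81, Lmna in immortalized against senescent -0.061, Lmnb1 in immortalized against quiescent 0.91, Lmna in senescent against proliferating MG132 libraries 0.39, and Lmnb2 in the aggresome contrast -0.065. With TMM factors, Vim (-0.0041) and Nes (0.58) in proliferating and Vim (0.47) and Lmna (-0.071) in immortalized fibroblasts changed direction or call, as did Lmnb1 in immortalized against quiescent DMSO libraries (0.94).

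Lmnb1 in immortalized against quiescent DMSO libraries was called with a pseudocount of 5 (0.76), a filter of 5 TPM (0.87), the replicate block (0.87) and array weights (0.54), and Lmnb2 in the aggresome contrast was -0.12 with a pseudocount of 5. Without a filter, calls were lost for the Vim response in immortalized fibroblasts (0.54), Lmnb2 in immortalized against proliferating (0.91), and Vim in senescent against quiescent (0.79) and immortalized against senescent DMSO libraries (-0.72). In fits of only the libraries compared, calls were lost for the Lmna response in proliferating (-0.65) and the Vim response in immortalized fibroblasts (0.54), and under DMSO for Vim in senescent against proliferating (0.87), Nes (0.72), Lmnb1 (1.04) and Lmnb2 (0.91) in immortalized against proliferating, and Vim in senescent against quiescent (0.79) and immortalized against senescent fibroblasts (-0.72). Genes called then numbered 2992, 2659 and 2461 for senescent, quiescent and immortalized against proliferating DMSO libraries. With array weights, the response was -0.15 for Vim in proliferating and -0.56 for Lmnb1 in senescent fibroblasts. Against proliferating DMSO libraries, weights gave Lmna -0.14 and Lmnb2 -1.09 in senescent, Vim -0.15 and Lmnb1 -0.14 in quiescent, and Vim -0.066, Lmna -0.17, Lmnb1 0.40 and Lmnb2 0.31 in immortalized fibroblasts. They also gave Nes -0.74 and Lmna -0.38 in senescent against quiescent, Lmna -0.033 in immortalized against senescent and -0.41 against quiescent fibroblasts, and Vim 0.35 (adjusted p = 0.020) and Lmna 0.45 (0.0097) in the aggresome contrast, both called there. Genes called with weights numbered 9998 for the senescent response, 10063 and 8825 for senescent against proliferating and quiescent DMSO libraries, and 6068 for the aggresome contrast.

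With each library left out in turn, the MG132 response of Vim ranged from 0.43 to 0.64 in immortalized, -0.22 to 0.0074 in senescent and -0.12 to 0.17 in proliferating fibroblasts, that of Nes from -0.090 to 0.42 in immortalized and 0.53 to 0.76 in proliferating, and that of Lmna from -0.19 to 0.18 in immortalized and -0.92 to -0.49 in proliferating fibroblasts. For Lmnb1 it ranged from -1.35 to -0.88 in quiescent and -1.42 to -0.87 in proliferating fibroblasts. For Lmnb2 it ranged from -1.30 to -0.69 in immortalized, -1.36 to -0.78 in senescent, -1.34 to -0.83 in quiescent and -1.39 to -0.87 in proliferating fibroblasts. Under DMSO, immortalized against proliferating ranged from -0.013 to 0.28 for Vim, 0.41 to 0.92 for Nes, -0.041 to 0.40 for Lmna, 0.60 to 1.33 for Lmnb1 and 0.56 to 1.16 for Lmnb2, with 3082 to 4637 genes called. Senescent against proliferating ranged from -0.14 to 0.35 for Lmna and -0.97 to -0.38 for Lmnb2, quiescent against proliferating from -0.088 to 0.20 for Vim and -0.19 to 0.36 for Lmnb1, senescent against quiescent from -0.61 to -0.18 for Lmna and -1.30 to -0.72 for Lmnb2, immortalized against quiescent from 0.43 to 1.16 for Lmnb1, and immortalized against senescent from -0.12 to 0.31 for Lmna. The response of immortalized minus senescent fibroblasts ranged from -1.17 to -0.66 for Nes and 0.52 to 0.76 for Vim, and that of immortalized minus quiescent fibroblasts from 0.59 to 0.80 for Vim. In the aggresome contrast, Nes ranged from -0.25 to 0.025 and Lmnb2 from -0.15 to 0.18. Immortalized against proliferating MG132 libraries ranged from 0.53 to 0.74 for Vim and 0.76 to 1.06 for Lmnb2.

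Whether replicate numbers pair the libraries was not settled. Over 16 pairs of groups the correlations of same-numbered libraries ran from -0.659 to 0.572, and 1 pair of groups had every correlation over 0.1. These use deviations from means of 3 libraries and were not set against differently numbered libraries, so they cannot exclude pairing. With the number as a block, 2 of 115 member calls changed, Lmnb1 in immortalized against quiescent DMSO libraries (adjusted p = 0.039) and the Vim response of immortalized minus quiescent fibroblasts (0.71, adjusted p = 0.045). With a pseudocount of 1 in the ratios, Lmna to Lmnb1 was 25.7 in immortalized, 40.2 in senescent and 20.5 in proliferating MG132 libraries, and Lmna to Lmnb2 was 28.3 in immortalized, 41.6 in senescent and 28.6 in proliferating MG132 and 26.3 in quiescent DMSO libraries. Lmnb2 to Lmnb1 was 0.719 in proliferating MG132 libraries, and the other 16 ratios moved by less than 1 SD. In TPM as deposited, 1 of the 3 genes most like Vim, Lmna, Lmnb1 and Lmnb2 each was shared with the list given.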
